A study of Homo sapiens with 18 samples.

Results

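The genes described here encode the enzymes that build ceramide and turn it into sphingomyelin and the first glycosphingolipids: SPTLC1, SPTLC2, CERS2, CERS5, CERS6, DEGS1, SGMS1, UGCG, B4GALT5 and ST3GAL5. They were taken by symbol from the 60483 genes listed in the expression table, and all 10 had a mean of at least 1 TPM (transcripts per 1000000), as did 13789 genes in all. The set follows the pathway from serine palmitoyltransferase to the ganglioside GM3, but B4GALT5 was in part selected on its measured values, having been noted for moving in opposite directions with stearate and with oleate. Its fatty acid values are therefore given as a description, with no test.

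RNA was sequenced from OVCAR5, an established human ovarian cancer line labelled as high grade serous adenocarcinoma and wild type, in 18 samples. All cells were kept for 24 h in medium with 5% albumin free of fatty acids, with no fatty acid, 50 µM stearate (saturated, 18:0) or 50 µM oleate (monounsaturated, 18:1). Each was combined with 1 µM CAY10566, an inhibitor of the desaturase SCD1 that makes oleate from stearate, or with its vehicle DMSO, which gave 6 conditions of 3 samples: without fatty acid DMSO and CAY10566, for stearate the pair stearate+DMSO and stearate+CAY10566, and for oleate the pair oleate+DMSO and oleate+CAY10566. Control below means the 6 samples without fatty acid, and the stearate and oleate groups hold 6 samples each, pooled over CAY10566. The 2 fatty acid comparisons share these controls.

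Ceramide is made at the endoplasmic reticulum: serine palmitoyltransferase joins serine to palmitoyl-CoA, the product is reduced, a ceramide synthase adds an acyl chain, and a desaturase sets the double bond that completes ceramide. In the Golgi, ceramide receives phosphocholine to become sphingomyelin or glucose to become glucosylceramide, the root of most glycosphingolipids. A galactose then gives lactosylceramide and a sialic acid gives GM3. In cancer cells these steps are studied because ceramide is linked to stress and cell death, and its conversion to glucosylceramide lowers free ceramide.

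The epithelial genes EPCAM (335 TPM in control) and KRT8 (962 TPM) were high and PAX8, a serous ovarian lineage factor, stood at 11.6 TPM, whereas WT1 (0.10 TPM), MUC16 (0.67 TPM), ESR1 (0.36 TPM) and MSLN (0.92 TPM) were near 0. KRT18, KRT7 and KRT8 were lower with stearate (651, 358 and 814 TPM) than in control (883, 456 and 962 TPM) or with oleate (790, 463 and 910 TPM), and their part in the results below was not tested. Of genes of other cell types, PTPRC, COL3A1 and PECAM1 were near 0 and COL1A1 was at 4.28 TPM, and of the gastrointestinal genes CDX2 (3.6 TPM) and KRT20 (1.98 TPM) were detected while VIL1, LGALS4 and CDH17 were near 0. TPM keeps no depth, so the reads behind each value are unknown and precision comes only from the spread between samples. One library stood apart: replicate 3 of CAY10566 lay at 14.2 on the first principal component, against -19.9 to -12.2 for the other 5 controls, so results that rest on it are given with and without it.

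In control cells the genes differed widely in level on the TPM scale, which is per transcript length. CERS2 was highest at 132 ± 7.37 TPM (mean ± SD, n = 6 here and below), followed by UGCG at 68.1 ± 5.31 and SPTLC1 at 65.3 ± 3.33, whose ranges overlapped. B4GALT5 stood at 50.1 ± 3.84. DEGS1 (32.3 ± 2.11) and CERS5 (31.4 ± 2.92) overlapped, and SPTLC2 followed at 21.8 ± 3.07. SGMS1 (9.21 ± 1.27) and CERS6 (9.17 ± 1.1) overlapped, and ST3GAL5 was lowest at 1.29 ± 0.232 TPM. UGCG, which commits ceramide to glycosphingolipids, and B4GALT5, which acts at the next step, were thus among the abundant members. The GM3 synthase was close to the filter.

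**Figure D1:**
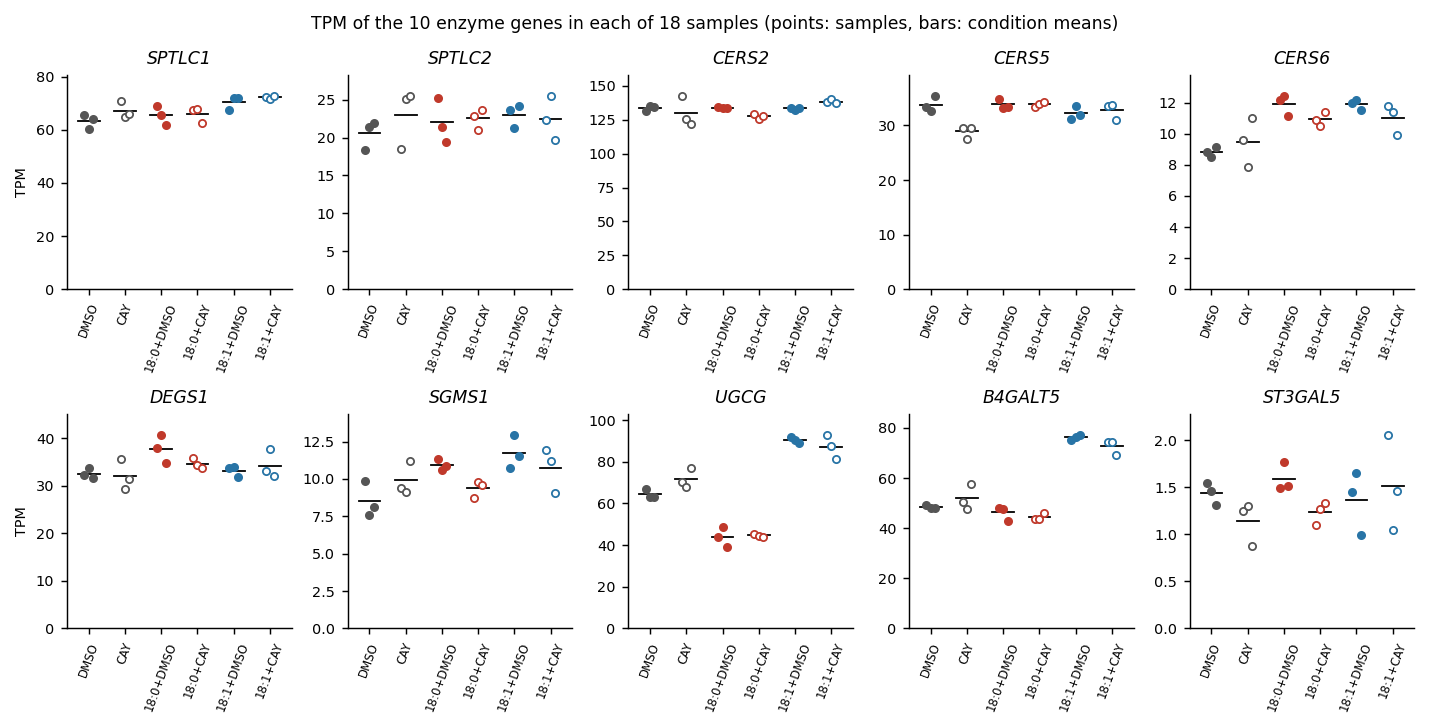
TPM of each of the 10 genes (y axis, from 0) in the 6 conditions (x axis, CAY for CAY10566, 18:0 for stearate and 18:1 for oleate). Points are samples, filled with DMSO and open with CAY10566, and bars are condition means; UGCG lies between 38.91 and 48.73 TPM with stearate and between 81.32 and 92.71 TPM with oleate, on either side of the controls.

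UGCG and B4GALT5 catalyse consecutive steps and were the 2 members with the largest difference between stearate and oleate, so their upstream sequence is shown. UGCG lies at chr9:111896814-111935369 on the plus strand and B4GALT5 at chr20:49632945-49713878 on the minus strand (GRCh38, GENCODE release 44). The 250 bases before the RefSeq start of each gene (GRCh38.p14) are chr9:111896564-111896813 for UGCG and chr20:49713879-49714128, minus strand, for B4GALT5, written 5′ to 3′, with GGGCGG or its reverse complement in capitals.
UGCG: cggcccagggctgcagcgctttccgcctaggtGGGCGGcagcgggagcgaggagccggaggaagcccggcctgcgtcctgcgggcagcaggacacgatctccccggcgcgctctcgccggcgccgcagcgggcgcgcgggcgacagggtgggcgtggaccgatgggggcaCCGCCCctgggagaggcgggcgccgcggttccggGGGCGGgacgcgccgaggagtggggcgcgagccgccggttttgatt
B4GALT5: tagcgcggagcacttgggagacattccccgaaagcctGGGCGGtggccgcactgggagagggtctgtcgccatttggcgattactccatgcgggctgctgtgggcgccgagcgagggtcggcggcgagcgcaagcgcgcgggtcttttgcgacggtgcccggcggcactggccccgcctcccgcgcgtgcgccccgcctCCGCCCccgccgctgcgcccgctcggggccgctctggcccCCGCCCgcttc

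Each of these windows held 3 copies of GGGCGG, the core of the GC box, and was rich in G and C (78.4% for UGCG and 75.6% for B4GALT5, against a mean of 57.2% over 35116 RefSeq windows). GGGCGG was found in 42.6% of all windows and in at least 1 window of each of the 9 members that matched the RefSeq table (all but CERS2). These members had 14 windows, so the count by gene and the share of windows are unlike measures. No GGGCGG was found in the DEGS1 window from base 224183430 or the ST3GAL5 windows from bases 85854172 and 85854176. Searched on both strands, CCAAT (32.0% of all windows) was found for SPTLC2, CERS6 and ST3GAL5, and TGACGT (7.1%) for ST3GAL5 only. CACGTG (6.34%) and TGAGTCA (4.2%) were found for no member. None of the 5 motifs contains another, and no match was tested as a binding site.

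UGCG fell with stearate and rose with oleate. UGCG, the glucosylceramide synthase, measured 66.97, 62.93 and 63.23 TPM with DMSO and 70.44, 67.72 and 77.24 TPM with CAY10566. With stearate it measured 43.84, 48.73 and 38.91 TPM with DMSO and 45.54, 44.6 and 43.95 TPM with CAY10566. With oleate it measured 91.78, 90.34 and 89.16 TPM with DMSO and 92.71, 87.62 and 81.32 TPM with CAY10566. Every stearate sample was below every control and every oleate sample was above, so none of the 3 groups overlapped. On the log2(TPM + 1) scale UGCG fell by 0.61 with stearate (SE 0.053, 0.655-fold, limma adjusted p = 2.01e-07) and rose by 0.38 with oleate (SE 0.053, 1.3-fold, adjusted p = 0.000382). Stearate against oleate gave -0.99 (SE 0.053, 0.503-fold, adjusted p = 2.15e-10). TPM is a share of all transcripts in bulk cells, so fewer cells with a transcript and less of it per cell cannot be told apart.

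B4GALT5, the main lactosylceramide synthase, was higher with oleate and close to control with stearate. It measured 49.24, 47.89 and 47.86 TPM with DMSO, and 50.27, 47.61 and 57.64 TPM with CAY10566. With oleate it measured 75.14, 76.51 and 77.06 TPM with DMSO and 74.2, 74.41 and 69.23 TPM with CAY10566. All 6 oleate samples were above all controls. With stearate it measured 48.21, 47.74 and 42.9 TPM with DMSO and 43.55, 43.79 and 46.08 TPM with CAY10566. The highest stearate samples lay within the control range, so these groups overlapped, whereas stearate and oleate did not. The log2 difference was 0.56 for oleate against control (1.48-fold), -0.14 for stearate against control (0.909-fold) and -0.70 for stearate against oleate (0.615-fold). Without replicate 3 of CAY10566, the highest control, the difference for stearate was -0.10 and that for oleate 0.60.

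Groups without overlap were found for UGCG alone among the 10 in stearate against control, where 7.79% of all tested genes had none, and for UGCG and B4GALT5 in oleate against control (4.06% of tested genes) and in stearate against oleate (10.2%). By size of the log2 difference, UGCG was the 125th lowest of 13789 genes in stearate against control and the 39th lowest in stearate against oleate. B4GALT5 was the 146th highest in oleate against control. These ranks describe where the genes stood and carry no test.

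**Figure D2:**
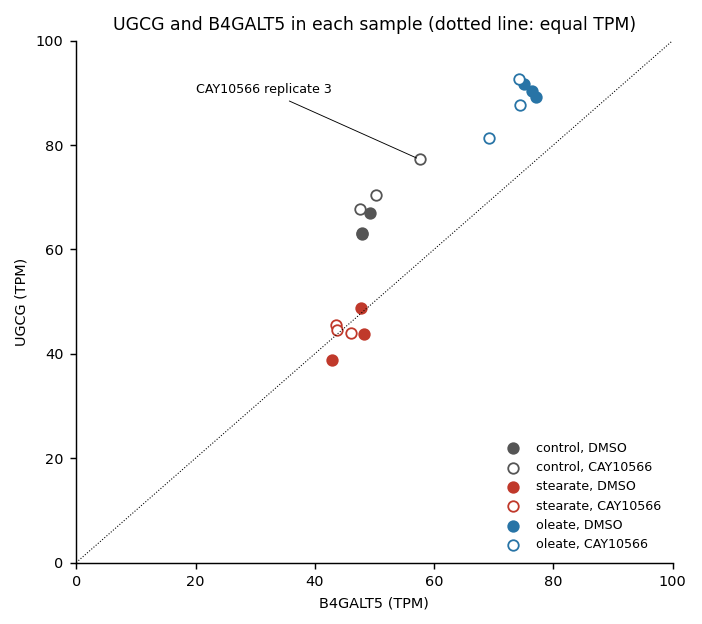
UGCG against B4GALT5, both in TPM, in each of the 18 samples, filled with DMSO and open with CAY10566, with a dotted line where both are equal. Oleate samples lie at the upper right, stearate samples lie near the line and controls lie above it at intermediate UGCG, with replicate 3 of CAY10566 nearest to the oleate samples.

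Because the genes shifted unequally, the ratio of UGCG to B4GALT5 differed between the groups. It was 1.36 ± 0.044 in control (range 1.31 to 1.42), 0.976 ± 0.061 with stearate (0.907 to 1.046) and 1.19 ± 0.035 with oleate (1.157 to 1.249). No ranges overlapped. Over the 18 samples the Pearson correlation of UGCG with B4GALT5 was 0.885, which ranked UGCG 152nd among 10141 genes with a mean of at least 5 TPM. The genes most like B4GALT5 over the 18 samples were LIMA1 (r = 0.984), which encodes an actin-binding protein, ETS1 (r = 0.970), a transcription factor, and TRAM2 (r = 0.965), a membrane protein of the endoplasmic reticulum. These correlations describe samples that share their fatty acid group and are given without a test.

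B4GALT6, the other lactosylceramide synthase, was lower than B4GALT5, at 6.16 ± 2.06 TPM in control, 7.52 ± 1.11 with stearate and 8.71 ± 1.22 with oleate. B4GALT5 made up 89.2 ± 2.55% of the sum of both in control, 85.8 ± 1.70% with stearate and 89.6 ± 1.08% with oleate, so it remained the main transcript of the pair in every group. ST3GAL5, at chr2:85837120-85905199, makes GM3 from lactosylceramide. It ranged from 0.87 to 1.54 TPM in control (median 1.31), from 1.1 to 1.77 with stearate (median 1.41) and from 0.99 to 2.05 with oleate (median 1.46). The groups overlapped and no change passed the test (adjusted p = 0.667 for stearate and 0.63 for oleate, limma), and its intervals were the widest of the members: -0.16 to 0.31 for stearate and -0.15 to 0.32 for oleate.

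Of the 9 members other than B4GALT5, 2 were higher and 1 was lower with stearate at an adjusted p under 0.05, where 13.5% of all tested genes were higher and 5.97% lower. With oleate 4 were higher and 0 lower, against 23.0% and 2.70% of all tested genes. UGCG alone also had a log2 difference over 0.32 in size, the limit used to call differential expression, in each comparison. This depended on the setting: after rescaling UGCG stood at 0.28 with oleate, and without replicate 3 of CAY10566 CERS6 stood at 0.35 with either fatty acid. Of all genes, 5.35% did so for stearate and 6.90% for oleate. In stearate against oleate 2 members were lower and 0 higher, against 14.3% and 6.85% of all genes, and 6.37% of genes also passed that limit. The median log2 difference of the 9 was 0.08 for stearate and 0.08 for oleate, beside 0.06 and 0.09 over all tested genes.

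**Figure D3:**
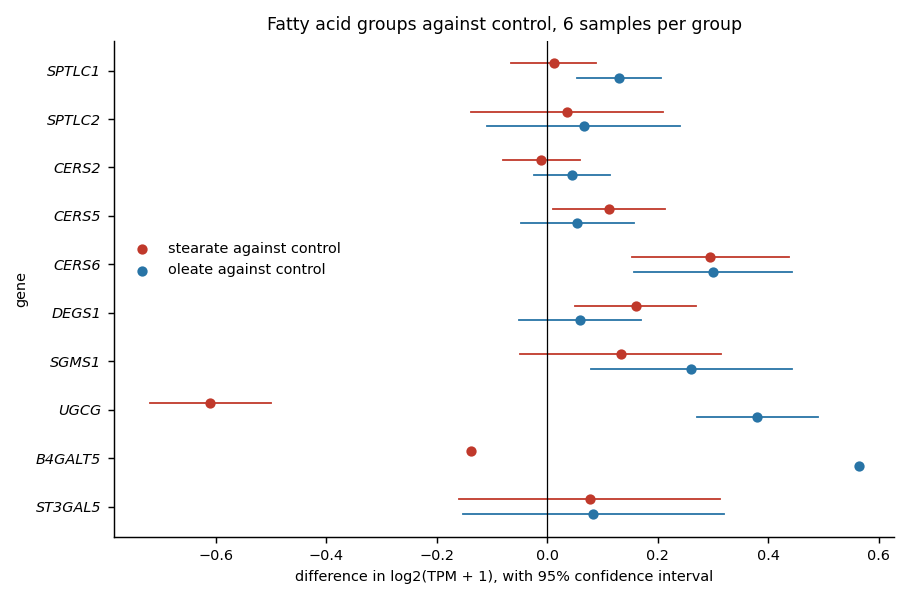
Difference in log2(TPM + 1) between each fatty acid group and control (x axis) for each gene (y axis), with 95% confidence intervals from limma and 6 samples per group. UGCG is at -0.61 with stearate and 0.38 with oleate, CERS6 at 0.30 with both, and B4GALT5 is drawn without intervals because it was not tested.

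CERS6, a ceramide synthase that prefers palmitoyl-CoA, rose with both fatty acids to the same extent. It lies at chr2:168456249-168775134 on the plus strand. It measured 8.82, 8.53 and 9.14 TPM with DMSO and 9.62, 7.84 and 11.04 TPM with CAY10566. It measured 12.19, 12.44 and 11.15 TPM in stearate+DMSO and 10.89, 10.51 and 11.44 TPM in stearate+CAY10566. In oleate+DMSO it measured 12.02, 12.21 and 11.55 TPM and in oleate+CAY10566 11.78, 11.4 and 9.91 TPM. Only replicate 3 of CAY10566 reached into the fatty acid values. The rise was 0.30 on the log2 scale with stearate (SE 0.068, 1.23-fold, limma adjusted p = 0.00548) and 0.30 with oleate (SE 0.068, 1.23-fold, adjusted p = 0.0052). Without that control replicate the rises were 0.35 and 0.35 (adjusted p = 0.000664 and 0.000332). Stearate against oleate gave 0.00 with a 95% interval from -0.15 to 0.14.

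CERS2, which favours very long acyl chains, and CERS5, which like CERS6 favours palmitoyl-CoA, made up most of the ceramide synthase transcripts. CERS2 (chr1:150960583-150975003, minus strand) ranged from 121.64 to 142.54 TPM in control, from 125.81 to 134.23 with stearate and from 132.2 to 140.24 with oleate. These ranges overlapped and no difference passed the test (adjusted p = 0.854 for stearate and 0.337 for oleate). CERS5 (chr12:50129289-50167533, minus strand) had medians of 31.2 TPM in control, 33.7 with stearate and 32.7 with oleate, within ranges of 27.6 to 35.4, 33.21 to 34.94 and 31.07 to 33.83. It did not pass the test either (adjusted p = 0.113 and 0.445). Of the sum of the 6 ceramide synthases, CERS6 made up 5.20 ± 0.714% in control, 6.34 ± 0.290% with stearate and 6.21 ± 0.466% with oleate, while CERS2 made up 74.6 ± 1.67%, 72.5 ± 0.543% and 73.5 ± 0.838%. CERS1 (1.84 TPM in control) and CERS4 (2.50 TPM) were low and CERS3 (0.055 TPM) was near 0. CERS2 shares 948 exonic bases with SETDB1 on the other strand (19.4 TPM) and CERS6 shares 3001 with CERS6-AS1 (0.334 TPM). If counting ignored the strand, reads from such pairs cannot be told apart.

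The first step varied little. SPTLC1 (chr9:92000087-92115413, minus strand), a shared subunit of serine palmitoyltransferase, ranged from 60.43 to 70.71 TPM in control (median 65.2), from 61.92 to 68.95 with stearate (median 66.6) and from 67.6 to 72.78 with oleate (median 72.1). All groups overlapped. It rose by 0.13 with oleate (SE 0.036, 1.09-fold, limma adjusted p = 0.015) and was at 0.01 with stearate (adjusted p = 0.855), while stearate against oleate gave -0.12 (adjusted p = 0.0262). Both calls were lost when TPM was rescaled by size factors (adjusted p = 0.605 and 0.151). SPTLC2 (chr14:77505997-77616637, minus strand), the catalytic partner, ranged from 18.34 to 25.49 TPM in control, from 19.48 to 25.17 with stearate and from 19.66 to 25.47 with oleate. These ranges nearly coincided and neither difference passed the test (adjusted p = 0.795 and 0.605).

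The alternative catalytic subunit SPTLC3 was scarce, at 1.23 ± 0.361 TPM in control, 2.37 ± 0.885 with stearate and 1.56 ± 0.638 with oleate. It passed the test with stearate (log2 difference 0.56, adjusted p = 0.0381) but lost that call in 10 of 25 alternative settings. The small subunit SPTSSA had means of 20.4 to 21.3 TPM, and SPTSSB was near 0. The ORMDL proteins restrain serine palmitoyltransferase. ORMDL1 rose with stearate (35.1 to 40.5 TPM, adjusted p = 0.00758) and ORMDL3 with oleate (17.9 to 20.5 TPM, adjusted p = 0.0126), while ORMDL2 was 40.9, 44.2 and 42.4 TPM in control, stearate and oleate. KDSR, which reduces the first product, rose with oleate from 35.2 to 39.6 TPM (adjusted p = 0.0164). The calls of ORMDL1, ORMDL3 and KDSR were lost after rescaling by size factors (adjusted p = 0.0701, 0.19 and 0.249), and that of KDSR also after removal of length and GC trends.

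DEGS1, the desaturase that completes ceramide (chr1:224175756-224193441, plus strand), was slightly higher with stearate. It ranged from 29.33 to 35.51 TPM in control (median 31.9), from 33.65 to 40.58 with stearate (median 35.4) and from 31.87 to 37.6 with oleate (median 33.4). The groups overlapped. It rose by 0.16 with stearate (SE 0.053, 1.12-fold, limma adjusted p = 0.0393) and stood at 0.06 with oleate (adjusted p = 0.435). The stearate call was lost in 7 of the 18 fits that left out 1 sample, among them that without replicate 3 of CAY10566 (adjusted p = 0.0506), and after rescaling (adjusted p = 0.174). The paralog DEGS2 was near 0 (0.27 TPM in control).

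SGMS1, the Golgi sphingomyelin synthase (chr10:50305586-50625163, minus strand), uses the same ceramide as UGCG. It shares 238 exonic bases with SGMS1-AS1 on the other strand (0.653 TPM). It ranged from 7.62 to 11.18 TPM in control (median 9.26), from 8.75 to 11.36 with stearate (median 10.2) and from 9.03 to 12.92 with oleate (median 11.3). All groups overlapped. It rose by 0.26 with oleate (SE 0.087, 1.2-fold, limma adjusted p = 0.0339) and was at 0.13 with stearate (adjusted p = 0.297). The oleate call was lost in 7 of the 18 fits that left out 1 sample (adjusted p up to 0.0898) and after rescaling (adjusted p = 0.118), but without replicate 3 of CAY10566 it was 0.31 (adjusted p = 0.00719).

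SGMS2, the sphingomyelin synthase also found at the plasma membrane, was higher than SGMS1 and rose with both fatty acids, from 13.0 ± 2.80 TPM to 18.8 ± 3.47 with stearate (log2 difference 0.51, adjusted p = 0.00928) and 18.8 ± 2.66 with oleate (0.52, adjusted p = 0.0079). SGMS1 made up 41.7 ± 2.77% of both in control, 35.4 ± 3.90% with stearate and 37.4 ± 2.18% with oleate. Set against the sum of SGMS1 and SGMS2, UGCG stood at 3.11 ± 0.316 in control, 1.55 ± 0.218 with stearate and 2.98 ± 0.274 with oleate. The stearate values of this ratio (1.37 to 1.85) did not reach the control values (2.65 to 3.55), and the oleate values (2.47 to 3.20) overlapped the controls.

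CAY10566 itself moved none of these genes past the test. Over 9 samples with and 9 without it, with the fatty acid as covariate, limma called 0 of the 10 genes (0 at an unadjusted p under 0.05) and 0 of all 13789 (0%; 748 at an unadjusted p under 0.05). UGCG differed by 0.04 (95% interval -0.05 to 0.13) and B4GALT5 by -0.01 (-0.09 to 0.07), with the widest interval for ST3GAL5 (-0.30 to 0.08).

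Within the DMSO samples, 3 against 3, UGCG fell by 0.55 with stearate (SE 0.069, limma adjusted p = 0.00015) and rose by 0.48 with oleate (adjusted p = 0.00151). CERS6 rose by 0.39 with stearate (adjusted p = 0.0149) and by 0.40 with oleate (adjusted p = 0.00861). SGMS1 rose by 0.42 with oleate (adjusted p = 0.012) and was 0.33 higher with stearate without passing the test (adjusted p = 0.0523). SPTLC1 rose by 0.15 with oleate (adjusted p = 0.0388). Thus 2 of the 9 members other than B4GALT5 were called for stearate, beside 14.0% of all genes, and 4 for oleate, beside 24.2%. B4GALT5 was at -0.06 with stearate and 0.65 with oleate. The CERS6 call with stearate was lost without DMSO replicate 2 (adjusted p = 0.0602) or replicate 1 or 2 of stearate+DMSO (0.0587 and 0.0579). The oleate call of SGMS1 was lost without replicate 2 of DMSO or of oleate+DMSO (0.0642 and 0.0609), and that of SPTLC1 without replicate 2 or 3 of DMSO (0.164 and 0.0716) or of oleate+DMSO (both 0.12).

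Within the CAY10566 samples UGCG fell by 0.67 with stearate (SE 0.069, limma adjusted p = 2.45e-05), and CERS5 was 0.22 higher (adjusted p = 0.0179). There the CERS5 control values of 29.59, 27.6 and 29.56 TPM lay below 33.46, 33.88 and 34.34 TPM with stearate. The CERS5 mean was 33.83 TPM in DMSO and 33.85 TPM in stearate+DMSO, close to the 33.89 TPM of stearate+CAY10566. This CERS5 call was lost without replicate 2 of CAY10566 (adjusted p = 0.0846) or replicate 2 or 3 of stearate+CAY10566 (0.055 and 0.0615). These 2 of 9 members compare with 4.75% of all genes. CERS6 was 0.20 higher with stearate (adjusted p = 0.275) and 0.20 with oleate (adjusted p = 0.368) here, past the test with neither, and 0.30 and 0.31 higher without replicate 3 of CAY10566 (adjusted p = 0.0677 and 0.059). For oleate, limma called 0 of the 9 and 0.109% of all genes. At an unadjusted p under 0.05 there were 3 of the 9, beside 1852 of all 13789 genes. UGCG was then 0.28 higher without passing the test (adjusted p = 0.129), and without replicate 3 of CAY10566 it was 0.33 higher (adjusted p = 0.0301), with 693 genes called in place of 15. B4GALT5 was at -0.21 with stearate and 0.48 with oleate, and at -0.14 and 0.56 without that replicate.

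**Figure D4:**
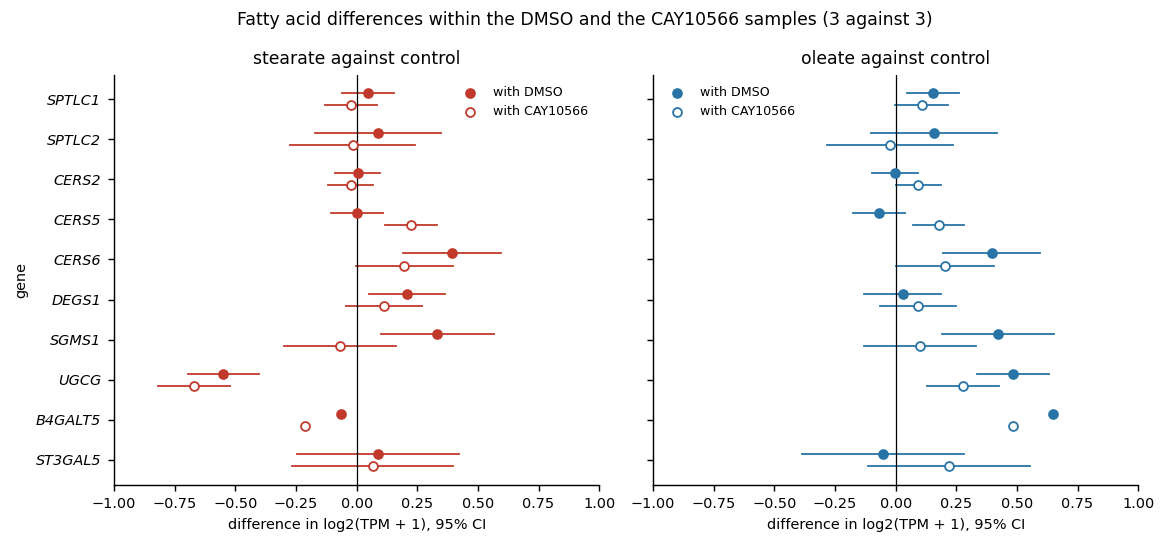
Difference in log2(TPM + 1) between fatty acid and control (x axis) for each gene (y axis) within the DMSO samples (filled) and the CAY10566 samples (open), 3 against 3, with 95% confidence intervals from limma. UGCG lies left of 0 with stearate in both (-0.55 and -0.67), and B4GALT5, drawn without intervals because it was not tested, lies right of 0 with oleate in both (0.65 and 0.48).

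The difference between these fatty acid effects was tested itself. The limma interaction with CAY10566 passed for 0 of the 9 genes other than B4GALT5 with stearate and for 0 with oleate. The shares called over all genes were 0.00725% and 0%. At an unadjusted p under 0.05 there were 2 of the 9 with stearate and 1 with oleate, beside 1290 and 1415 of all 13789 genes. The interaction of UGCG was -0.12 with stearate (95% interval -0.33 to 0.09) and -0.21 with oleate (-0.42 to 0.00). That of SGMS1 with stearate was -0.40 (-0.73 to -0.07, adjusted p = 0.512). That of CERS5 was 0.22 with stearate (0.07 to 0.37, adjusted p = 0.488) and 0.24 with oleate (0.09 to 0.40, adjusted p = 0.449). Without replicate 3 of CAY10566 these were -0.07 and -0.15 for UGCG and -0.32 for SGMS1 with stearate (adjusted p = 0.77). For CERS5 they were 0.24 with stearate and 0.26 with oleate (adjusted p = 0.66 and 0.726). For B4GALT5 the interaction, given with no test, was -0.15 with stearate and -0.16 with oleate, and -0.07 and -0.09 without that replicate.

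The members were set beside a wider list of 56 other sphingolipid genes, of which 49 were tested. With stearate 15 of the 49 (30.6%) were higher and 1 (2.04%) lower, with a median log2 difference of 0.13, and with oleate 17 (34.7%) were higher and 1 (2.04%) lower, with a median of 0.12. The shares over all tested genes were 13.5% and 5.97% for stearate and 23.0% and 2.70% for oleate. Rescaling by size factors left 6 higher and 1 lower for stearate (median 0.07) and 6 higher and 4 lower for oleate (median 0.02). Without replicate 3 of CAY10566, 22 were higher and 1 lower for stearate and 21 higher and 2 lower for oleate, while the genes called over all tested went from 2679 to 3692 for stearate and from 3541 to 4700 for oleate. Over all tested genes rescaling turned 1856 higher and 823 lower into 1092 and 1405 for stearate, and 3169 and 372 into 1251 and 1257 for oleate, and rescaling moved the median of all genes by less than 0.1. UGCG and CERS6 kept their calls against control under rescaling.

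Of the 49 list genes, 5 (10.2%) changed by more than 0.32 on the log2 scale with stearate and 7 (14.3%) with oleate, beside 5.35% and 6.90% of all tested genes. Rescaling by size factors put SAMD8 (0.28), CERT1 (0.31), SGPP2 (0.30), UGT8 (0.28) and GALC (0.29) below that limit with oleate. B4GALT6 then lost its oleate call (limma adjusted p = 0.0554), while SGMS2 kept its own (0.42). The 5 genes with stearate stayed past the limit. Over all tested genes those past it went from 738 to 645 for stearate and from 951 to 460 for oleate. SPNS2, an exporter of sphingosine 1-phosphate, fell with stearate from 11.6 ± 1.3 to 5.28 ± 0.745 TPM (log2 difference -1.0, adjusted p = 1.83e-07, limma) and stood at 13.4 ± 1.13 TPM with oleate. The stearate values did not overlap the others. SGPP2, a phosphatase of sphingosine 1-phosphate, rose from 2.99 ± 0.389 TPM to 5.26 ± 0.440 with stearate (adjusted p = 2.35e-05) and 4.17 ± 0.545 with oleate (adjusted p = 0.00461). CERT1, which carries ceramide to the Golgi for sphingomyelin synthesis, rose with oleate from 12.6 ± 2.26 to 16.9 ± 0.747 TPM (adjusted p = 0.00411) and was 12.5 ± 1.56 TPM with stearate.

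SAMD8, which makes ceramide phosphoethanolamine, rose with both (log2 difference 0.42 with stearate and 0.37 with oleate, adjusted p = 0.0115 and 0.0179). UGT8, the galactosylceramide synthase, rose with both as well, by 0.295 with stearate (adjusted p = 0.0036) and 0.37 with oleate (adjusted p = 0.00187). GALC, which removes that galactose, rose by 0.27 with stearate (adjusted p = 0.0208, a call lost after removal of length and GC trends and without replicate 2 of CAY10566 or replicate 3 of stearate+CAY10566) and 0.39 with oleate (adjusted p = 0.00304). B4GALT6 was called with oleate (0.48, adjusted p = 0.0244) and lost that call in 5 of 26 alternative settings. SMPD1, the acid sphingomyelinase, was 0.39 higher with stearate than with oleate (adjusted p = 0.00385). Among glycosphingolipid breakdown genes, GLA, which removes terminal galactose, rose by 0.20 with stearate (adjusted p = 0.00629) and GM2A, an activator of ganglioside breakdown, by 0.21 (adjusted p = 0.0175). The sialidase gene NEU1 rose by 0.13 with stearate (adjusted p = 0.0139) and fell by 0.11 with oleate (adjusted p = 0.0254). The stearate calls of GLA, GM2A and NEU1 were lost after rescaling (adjusted p = 0.0768, 0.0658 and 0.182), and the oleate call of NEU1 without replicate 1 or 2 of DMSO or replicate 2 of oleate+DMSO. In stearate against oleate, 7 of the 49 (14.3%) were higher and 4 (8.16%) lower, beside 6.85% and 14.3% of all tested genes (8 and 4 of the 49 after rescaling).

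**Figure D5:**
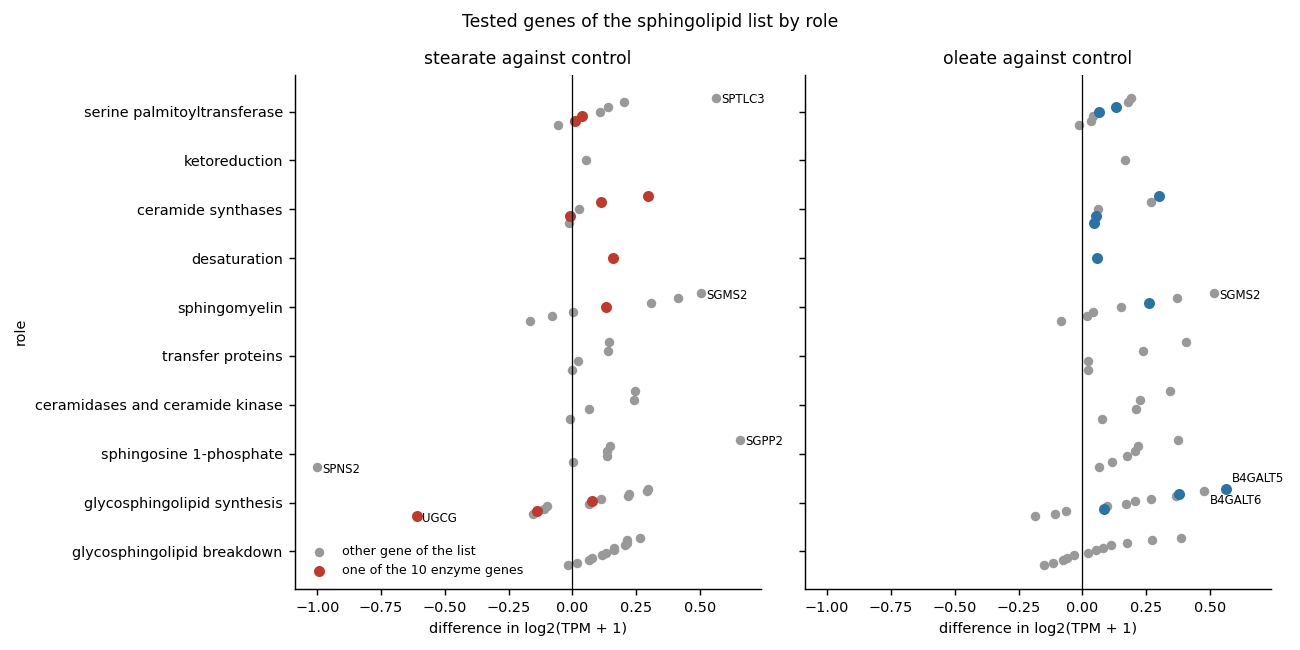
Difference in log2(TPM + 1) between fatty acid and control (x axis) for the 59 tested genes of the sphingolipid list by role (y axis), with the 10 enzyme genes in colour and genes beyond 0.45 in size named. UGCG and SPNS2 lie far to the left with stearate (-0.61 and -1.0), and B4GALT5 lies farthest to the right with oleate (0.56).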

How the data were processed

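RNA was measured in 18 OVCAR5 samples. The authors prepared stranded mRNA libraries, read 100 bp from both ends, trimmed with Trim Galore, aligned to GRCh38 (Ensembl release 99) by STAR 2.7.1a and estimated gene expression by RSEM. Their deposited table gives each gene in TPM, with no record of depth; whether counting used the strand is not given in the sources used here. The labels do not say that replicates were separate cultures, so p-values may measure technical spread only.

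A line naming no gene was dropped, and 56321 identifiers (93.1%) had a symbol. limma 3.58.1 (R 4.3.3; lmFit, eBayes with a trend) was fitted to log2(TPM + 1) of the 13789 genes averaging 1 TPM or more, and p-values were Benjamini-Hochberg adjusted over all of them. This scale understates changes of low genes. Changed means an adjusted p under 0.05. Fatty acid groups entered as 3 groups of 6, CAY10566 as 9 against 9 with the fatty acid as covariate, and conditions as 6 groups of 3. Alternatives were a pseudocount of 0.1, no filter, a mean TPM of at least 5, median-of-ratios rescaling, no trend, a replicate block, removal of length and GC trends (13627 genes had a length), CAY10566 as a covariate and leaving out each sample. Code was tested on simulated data. Figures used matplotlib 3.10.9.

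The members and lists were chosen with earlier results of these data known. Named genes were all 10 members, their paralogs and partners, list genes changed by over 0.32 on the log2 scale and the 3 genes most correlated with B4GALT5. ORMDL1, ORMDL3 and KDSR are partners, and the breakdown genes below that size were named after their values were seen. Some genes of the wider list are not reported here by name.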

Additional observations from a re-analysis of the deposited data

Results flagged for a closer look

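In 5 of 30 cases, each a gene in the 6 samples of a fatty acid group, 1 sample lay far from the other 5 by Dixon's criterion; chance alone gives about 1 in 20. B4GALT5 was 57.64 TPM in replicate 3 of CAY10566, against 47.61 to 50.27 TPM in the other controls, the same library that stood apart on the first principal component. B4GALT5 was also low in replicate 3 of oleate+CAY10566, at 69.23 TPM against 74.2 to 77.06 TPM in the other oleate samples. In that library CERS6 was 9.91 TPM, against 11.4 to 12.21 TPM. SPTLC1 was 67.6 TPM in replicate 1 of oleate+DMSO, against 71.8 to 72.78 TPM, and DEGS1 was 37.6 TPM in replicate 2 of oleate+CAY10566, against 31.87 to 33.9 TPM.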

How the results depend on the processing

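UGCG kept its direction and its call in each of 26 alternatives for the 3 fatty acid comparisons: the log2 difference ranged from -0.67 to -0.57 for stearate, from 0.28 to 0.42 for oleate and from -1.02 to -0.95 for stearate against oleate. CERS6 kept its calls against control likewise (0.22 to 0.35 for stearate and 0.20 to 0.35 for oleate). The differences of B4GALT5 ranged from -0.20 to -0.10, from 0.47 (rescaled) to 0.60 and from -0.72 to -0.66. Rescaling by size factors lowered the members called, other than B4GALT5, from 4 to 2 for oleate and from 2 to 1 for stearate against oleate. Over all tested genes it took those called from 3541 to 2508 and from 2912 to 3028. Leaving out 1 sample gave 1 to 2 members called for stearate against oleate. The count was 1 without replicate 3 of stearate+DMSO, of stearate+CAY10566 or of oleate+DMSO, or replicate 1 of oleate+CAY10566. These fits called 2307, 2723, 2340 and 2415 of all tested genes, in that order, beside 2912 with all samples. Within DMSO, leaving out 1 sample gave 1 to 3 members for stearate and 2 to 4 for oleate, and within CAY10566 1 to 2 for stearate and 0 to 1 for oleate. No called difference of a member changed sign, but some that were not called in the report did, such as CERS2 with oleate (-0.05 to 0.10). DEGS1 with stearate and SGMS1 with oleate also lost their calls with no filter (limma, not past the threshold), and SPTLC1 with oleate lost its call after removal of length and GC trends (adjusted p = 0.104), where CERS2 with oleate gained one (0.10, adjusted p = 0.0312). The libraries whose absence ended the DEGS1 call were replicates 1 and 3 of DMSO, 2 and 3 of CAY10566, 1 and 2 of stearate+DMSO and 1 of stearate+CAY10566, and for SGMS1 replicates 2 and 3 of DMSO, 2 of CAY10566, 2 and 3 of oleate+DMSO and 1 and 2 of oleate+CAY10566. SPTLC3 with stearate lost its call without replicate 3 of DMSO, 1 or 2 of CAY10566, any replicate of stearate+DMSO or replicate 3 of stearate+CAY10566, and B4GALT6 with oleate without replicate 2 or 3 of DMSO or 3 of oleate+DMSO. CERS5 with stearate gained one without DMSO replicate 3 (adjusted p = 0.0352). The cause was not tested. ST3GAL5 gave no value at a mean TPM of at least 5.

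Samples with the same replicate number did not deviate together: the correlation of their deviations had a median of 0.012 over 45 pairs (-0.18 to 0.103). Over 90 pairs with different numbers the median was -0.0109 (-0.124 to 0.171). Samples handled together need not deviate together, so these values cannot show whether the numbers pair the samples. With the replicate block 3, 4 and 2 members were called in the 3 fatty acid comparisons, as without it. Over all tested genes the block gave 2504, 3336 and 2782 called, beside 2679, 3541 and 2912 without it. The unknown depth limits all values, above all those near 1 TPM such as ST3GAL5.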
